A study of Homo sapiens with 22 samples.

Results

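Histone-modifying enzymes place or remove the methyl and acetyl groups carried by histones. They were taken here by name from both raw count tables: names that start with KDM, KMT, SETD, HDAC, SIRT or PRMT followed by a digit or B, with KAT or NSD plus a digit, with EHMT, with SUV39H or with EZH. Of the 99 names that met this rule, 9 with a hyphen, 8 that end in P plus digits and KDM5D were left out, which left 81 of the 59087 gene names. In each of the 2 experiments 76 of the 81 passed the filter on low counts and were tested, among 13236 genes in the H2A.X experiment and 13879 in the BAZ1B experiment. The other 5 (EZHIP, HDAC9, KDM4E, KDM4F and PRMT8) had a count of 0 in all 22 libraries, where a count of 0 allows up to 3 reads in a library.

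RNA-Seq was performed on HUDEP-2 cells, an immortalized human line derived from erythroid progenitors, which grow as early erythroblasts and can be matured in culture. Cells edited in the gene of the histone variant H2A.X or of BAZ1B, a chromatin remodeler subunit and tyrosine kinase of H2A.X, were compared with wild-type (WT) cells to ask how either loss changes gene expression in maturation. At each of 2 time points, D0 in expansion medium and D6 in differentiation medium, 2 WT and 3 H2A.X knockout (KO) libraries were sequenced in the H2A.X experiment, and 3 of each genotype in the BAZ1B experiment. All KO cells came from CRISPR/Cas9 with lentiviral guides, placed upstream of the start codon and just past the stop codon of the H2A.X gene, or downstream of the first exon of BAZ1B. Every library came from a cultured subclone of 1 cell line, so no donor differs between the groups, and p-values measure the spread between these subclone libraries.

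Methylation of histone H3 at lysine 4 and lysine 36 is found at active genes, methylation of H3 at lysine 9 and lysine 27 and of histone H4 at lysine 20 goes with repression and compaction, and demethylases of the KDM family take these groups off again. Lysine acetyltransferases (KAT) loosen the contact of histones with DNA, and the histone deacetylases (HDAC) and the NAD-dependent sirtuins (SIRT) undo this. In late erythroblasts the nucleus condenses before it is expelled, and EZH2, KMT5A (Setd8), HDAC5, HDAC6 and KDM1A (LSD1) are among the enzymes known for a part in erythroid maturation.

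The start regions of 3 enzymes are shown because these genes moved most in maturation: KDM7A, a demethylase of repressive marks, and KAT2B (PCAF), an acetyltransferase, which were higher at D6, and SETD7, a methyltransferase of H3 lysine 4 and other proteins, which was lower. Each line gives the 250 bases before the RefSeq transcription start (GRCh38.p14) in the direction of the gene. KDM7A lies on the minus strand (chr7:140176984-140177233), KAT2B on the plus strand (chr3:20040196-20040445) and SETD7 on the minus strand (chr4:139556220-139556469).
KDM7A: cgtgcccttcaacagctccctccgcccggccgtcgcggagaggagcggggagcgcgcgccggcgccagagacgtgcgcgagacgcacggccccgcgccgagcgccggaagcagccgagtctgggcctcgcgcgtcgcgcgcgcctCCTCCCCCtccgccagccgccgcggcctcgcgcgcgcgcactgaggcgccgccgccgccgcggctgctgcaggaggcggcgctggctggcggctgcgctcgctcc
KAT2B: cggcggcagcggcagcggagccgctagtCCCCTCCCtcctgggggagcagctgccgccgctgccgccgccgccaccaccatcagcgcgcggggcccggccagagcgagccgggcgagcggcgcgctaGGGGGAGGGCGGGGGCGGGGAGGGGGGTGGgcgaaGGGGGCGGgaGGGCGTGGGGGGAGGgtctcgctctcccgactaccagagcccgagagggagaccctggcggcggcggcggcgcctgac
SETD7: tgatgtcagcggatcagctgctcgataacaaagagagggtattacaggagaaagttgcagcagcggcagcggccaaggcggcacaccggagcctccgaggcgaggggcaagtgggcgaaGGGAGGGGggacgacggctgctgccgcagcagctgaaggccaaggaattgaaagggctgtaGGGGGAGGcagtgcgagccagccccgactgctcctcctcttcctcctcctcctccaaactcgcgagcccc
Capitals mark matches, on either strand and overlapping where they run together, to the word CCNCNCCC, the core of the CACC box read by KLF1. The KDM7A window holds 1 such match, the KAT2B window 10 and the SETD7 window 2. None of the 3 windows holds the GATA word on either strand, that is, GATA with A or T before it and A or G after it. RefSeq start regions were matched for 74 of the 81 enzymes. A CCNCNCCC match stood in 53 of these 74 (71.6%) and in 52.4% of all 27305 start regions of that length, and the GATA word in 13 of 74 (17.6%) and 22.9% of all. Among the enzymes higher at D6 in BAZ1B WT cells 22 of 27 held the CCNCNCCC word, among those lower 19 of 24 and among those not called 12 of 19. For the GATA word these counts were 6, 4 and 1. A match describes the letters of the window and is not evidence of binding.

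Total counts ran from 11910141 to 21013004 per library in the H2A.X experiment and from 33199408 to 41273244 in the BAZ1B experiment. In the H2A.X KO cells the targeted gene, listed as H2AFX, had 1575 and 1969.7 normalized counts in WT and 333, 787 and 759.8 in KO libraries at D0 and 1748 and 2390.4 and 308, 1050.2 and 799 at D6, so that it was 2.83-fold lower at D0 (edgeR adjusted p = 0.0304) and 2.88-fold lower at D6 (adjusted p = 0.0233) but not absent. In the BAZ1B KO cells BAZ1B had 6556, 8349 and 7348 counts at D0 and 7038, 7377 and 6818 at D6, against 9913, 9823 and 9703 and 9135, 9429 and 9105 in WT, and was lower on the log2 scale by 0.40 (SE 0.067, edgeR adjusted p = 0.00415) and 0.38 (adjusted p = 0.0025). These counts are RNA and do not measure remaining protein. The study chose clones with homozygous deletions by PCR and sequencing and blotted both proteins. It reported both H2A.X phosphorylation marks as eliminated in H2A.X KO lines and Y142 phosphorylation as lost in BAZ1B KO cells. All 8 erythroid markers rose from D0 to D6 in BAZ1B WT, BAZ1B KO and H2A.X KO cells. In H2A.X WT cells 0 of 8 passed the test, and their median log2 change was 0.58. Of the 18 late erythroid genes 16 rose in BAZ1B WT cells, with a median log2 change of 1.79, and 13 in H2A.X KO cells, while 0 passed in H2A.X WT cells. CD3E and MS4A1 of lymphocytes and PF4 of megakaryocytes stayed under 1 normalized count in every group. The summed megakaryocyte markers ran from 2718 to 2835 in BAZ1B WT cells at D0 and from 313 to 389.9 at D6. GP9 was under 1 there as well, so these sums are nearly all ITGA2B. The summed monocyte markers ran from 164 to 237 in BAZ1B WT cells at D0 and from 7.92 to 13.1 at D6. The summed markers of mast cells and eosinophils were not near 0 and ran from 17546 to 19094 normalized counts in BAZ1B WT cells at D0 and from 1127 to 1532 at D6. In H2A.X KO cells these sums ran from 3679 to 7367 at D0 and from 54.2 to 237 at D6. In BAZ1B KO cells they ran from 17029.6 to 23278 at D0 and from 459.5 to 1442 at D6, and H2A.X WT cells alone did not have lower sums at D6: they ran from 1821 to 2457 at D0 and from 2541 to 4069 at D6. Of 12 proliferation genes 11 rose and none fell in BAZ1B WT maturation. The part of these marker lists in the maturation results was not tested.

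The H2A.X libraries did not all stand on the same footing. The column names of 5 of the 6 H2A.X KO libraries carry the word Redo, that of KO D6 replicate 3 and those of all 4 WT libraries do not. Of the counts in genes with a known transcript length, those of 5 kb or longer took 24.1% to 26.3% in the 5 marked libraries, 20.8% in KO D6 replicate 3 and 12.5% to 18.1% in the 4 WT libraries. In the BAZ1B experiment this share ran from 23.5% to 26.3% over all 12 libraries. At D0 the mark and the genotype cannot be told apart.

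Counts are given below as normalized counts, that is, counts brought to 1 common library size within their own experiment (the mean of its effective sizes), so a level can be compared between libraries of 1 experiment but not between experiments. Called means an edgeR adjusted p below 0.05 over all genes tested. Levels between enzymes were compared as CPM (counts scaled to library size) per kb of the canonical transcript. At D0 in BAZ1B WT cells the median level of the enzymes was 12.4 CPM per kb. The arginine methyltransferase PRMT1 stood highest at 213 ± 5.17 (SD, n = 3), followed by PRMT5 at 91.4 ± 0.699, the lysine demethylase KDM1A at 75.9 ± 0.187 and the class I deacetylases HDAC1 at 57.7 ± 1.7 and HDAC2 at 48.8 ± 1.79. None of these neighbours overlapped in their SD. KDM7A, at 0.603 ± 0.0411, ranked 74 among the enzymes at D0, and HDAC7 moved from rank 8 at D0 to rank 33 at D6.

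In BAZ1B WT cells the enzymes split in both directions with maturation. From D0 to D6 55 of 76 (72.4%) were called, 31 higher and 24 lower, where 68.9% of all genes were called, 33.5% higher and 35.4% lower. Their median log2 change was 0.02 and that of all genes -0.02. Once the fit allowed for the length and GC content of transcripts in every library, 37 were higher and 17 lower, with a median of 0.14, and 46 of the 55 kept their call and direction. Of all genes 70.2% were called in that fit, 5009 higher and 4735 lower. By a stricter rule (adjusted p below 0.001 and a log2 fold change above 1.5 either way) 4 enzymes remained, KDM7A, KAT2B, HDAC5 and SETD7, against 11.7% of all genes. In BAZ1B KO maturation 5 remained (11.5% of all genes) and in H2A.X KO maturation 1 (3.22%). None remained between H2A.X KO and WT cells at D0 or D6 (0.166% and 0.151%), between BAZ1B KO and WT cells at D0 or D6 (0.36% and 0.749%), in H2A.X WT maturation (0%) or in the change of the KO difference between the days (0% for H2A.X and 0.0288% for BAZ1B). D0 and D6 values did not overlap for 64 of the 76. The share of all genes without overlap was not computed, so this count is not read as a trait of the enzymes. By adjusted p below 0.05 in the main fit, the share of enzymes called (72.4%) was close to that of all genes (68.9%). By the stricter rule it was smaller, with 4 of 76 enzymes against 1627 of 13879 genes. After the length and GC correction more enzymes were higher than lower, 37 against 17, where all genes were nearly even, 5009 against 4735. In these bulk libraries, fewer cells of a type and less RNA of a gene per cell cannot be told apart.

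**Figure D1:**
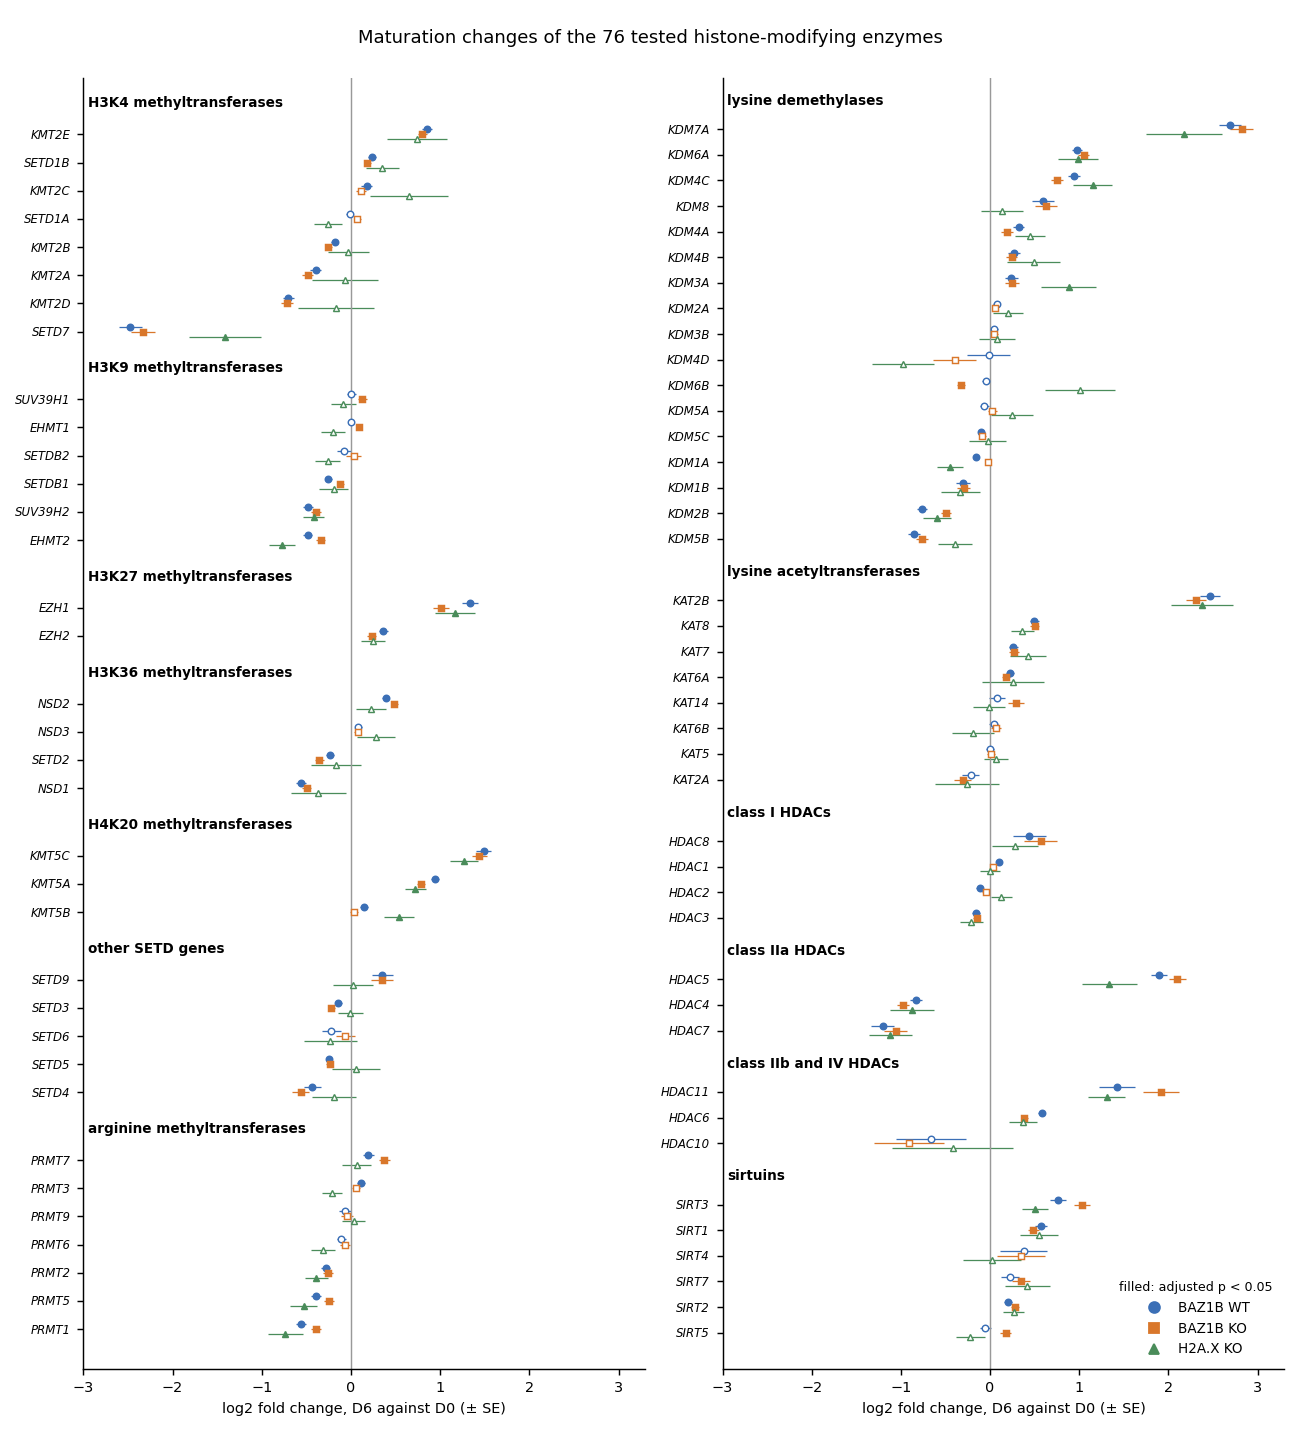
Maturation changes of the 76 tested enzymes by family, as log2 fold change of D6 against D0 with its standard error (horizontal axis) for BAZ1B WT (circles), BAZ1B KO (squares) and H2A.X KO cells (triangles); filled symbols were called at an edgeR adjusted p below 0.05. KDM7A and KAT2B stand farthest to the right and SETD7 farthest to the left in BAZ1B WT and BAZ1B KO cells, between 2.31 and 2.82 and at -2.48 and -2.33.

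Among the H3 lysine 4 methyltransferases 3 of 8 rose and 4 fell in BAZ1B WT cells, with a median log2 change of -0.10. After the length and GC correction 4 rose and 2 fell, with a median of 0.08. SETD7 counts were 1674, 1625 and 1675 in the WT libraries at D0 and 302, 330.4 and 261 at D6. All D6 libraries lay far below all D0 libraries, a 5.57-fold fall with a log2 change of -2.48 (SE 0.129, edgeR adjusted p = 2.67e-09). KMT2D and KMT2A, the large catalytic subunits of MLL complexes, fell by smaller amounts. KMT2D went from 10773, 11803 and 11362 to 6597, 7309 and 6935, a log2 change of -0.70 (SE 0.0642, edgeR adjusted p = 5.47e-07). KMT2A changed by -0.40 (SE 0.0623, edgeR adjusted p = 8.07e-05), a call that was lost after the length and GC correction (log2 change -0.05, adjusted p = 0.289). KMT2E, which has lost methyltransferase activity in spite of its SET domain, rose from 2799, 2835 and 2554 to 4802, 4882 and 5087, by 0.85 (SE 0.053, edgeR adjusted p = 1.42e-08).

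Without the length and GC correction, calls among the methyltransferases of H3 lysine 9 and of H3 lysine 27 had opposite directions. Of the 6 enzymes of lysine 9 none rose and 3 fell, and after the correction 1 rose and 3 fell. EHMT2 (G9a) went from 4844, 4669.7 and 4689 to 3352, 3344 and 3431 and SUV39H2 from 1667, 1615 and 1538 to 1158, 1203 and 1085, log2 changes of -0.49 (SE 0.0473, edgeR adjusted p = 9.76e-07) and -0.48 (SE 0.0571, edgeR adjusted p = 6.27e-06). SUV39H1, the paralog of SUV39H2, was not called, with a mean of 1335 ± 31.3 (SD, n = 3) at D0 and 1335 ± 32.5 at D6. Both lysine 27 enzymes, the catalytic subunits of PRC2, rose. EZH1 counts were 1235, 1315 and 1362 at D0 and 2927, 3175 and 3729 at D6, a 2.51-fold rise of 1.33 (SE 0.0904, edgeR adjusted p = 3.27e-08) on the log2 scale. EZH2 rose by less, from 2779, 2683 and 2795 to 3554, 3491 and 3573, or 0.36 (SE 0.0505, edgeR adjusted p = 2.88e-05), with no overlap between the days for either gene. Per kb EZH2 remained above EZH1 at both days, at 27.6 ± 0.606 and 7.49 ± 0.368 CPM per kb (SD, n = 3) at D0 and 35.5 ± 0.43 and 18.8 ± 2.36 at D6.

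All 3 methyltransferases of H4 lysine 20 rose in BAZ1B WT cells. KMT5C, which places the di- and trimethyl form, had 641, 601 and 591 counts at D0 and 1619, 1606 and 1906 at D6. This 2.8-fold rise, 1.49 (SE 0.0848, edgeR adjusted p = 6.13e-09) on the log2 scale, left no overlap. KMT5A, the monomethyltransferase of this residue, rose from 2298, 2351 and 2284 to 4236, 4367 and 4678, by 0.94 (SE 0.0443, edgeR adjusted p = 1.24e-09). Of the 4 H3 lysine 36 enzymes 1 rose and 2 fell, and after the length and GC correction 2 rose and 1 fell. NSD1 changed by -0.56 (SE 0.0538, edgeR adjusted p = 9.34e-07). SETD2, which adds the trimethyl form, changed by -0.24 (SE 0.046, edgeR adjusted p = 0.000508). Its length- and GC-corrected log2 change of -0.02 was no longer called (edgeR adjusted p = 0.622). Among the 5 other SETD genes 1 rose and 3 fell, SETD4 among them at -0.44 (SE 0.0955, edgeR adjusted p = 0.00121), and after the correction 0 rose and 1 fell. Among the 7 tested arginine methyltransferases 2 rose and 3 fell. PRMT1, the main asymmetric arginine methyltransferase, went from 10848, 10356 and 10738 to 7442, 7542 and 6705, or -0.56 (SE 0.0541, edgeR adjusted p = 9.62e-07), and PRMT5, the symmetric one, changed by -0.39 (SE 0.0554, edgeR adjusted p = 3.47e-05).

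Of the 17 tested lysine demethylases 7 rose and 5 fell in BAZ1B WT cells, with a median log2 change of 0.05, and after the correction for length and GC content 11 rose and 4 fell, with a median of 0.23. KDM7A had 211, 194 and 222 counts at D0 and 1285, 1362 and 1391 at D6. This 6.44-fold rise, 2.69 (SE 0.121, edgeR adjusted p = 8.71e-10) on the log2 scale, was the largest of any of the 76 enzymes. KDM6A (UTX), a lysine 27 demethylase, rose from 809.8, 881 and 875 to 1636, 1627 and 1779, by 0.97 (SE 0.0605, edgeR adjusted p = 1.39e-08), while its relative KDM6B (JMJD3) was not called, at 1178, 1129 and 1140.5 and then 1103, 1077 and 1149.7. KDM5B, a lysine 4 demethylase, went from 6050.1, 5859 and 5494 to 3276, 3216 and 3134, a log2 change of -0.85 (SE 0.0704, edgeR adjusted p = 2.02e-07). KDM2B, which binds CpG islands, changed by -0.77 (SE 0.0545, edgeR adjusted p = 5e-08). KDM1A, known as a partner of GFI1B in erythroid repression, fell by less, to 8112, 7863 and 7664 from 8823, 8803 and 8780.1, or -0.16 (SE 0.0352, edgeR adjusted p = 0.00128), without overlap.

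Among the 8 lysine acetyltransferases 4 rose and none fell. KAT2B had 731, 755 and 789 counts at D0 and 3979.9, 3958 and 4635 at D6, a 5.53-fold rise of 2.47 (SE 0.109, edgeR adjusted p = 7.69e-10). Its paralog KAT2A (GCN5) was not called, with means of 2895 ± 158 and 2495 ± 89.1 (SD, n = 3). KAT8 (MOF) and KAT7 (HBO1), both of the MYST group, rose by 0.50 (SE 0.0531, edgeR adjusted p = 2.47e-06) and 0.26 (SE 0.0555, edgeR adjusted p = 0.000942). Per kb, KAT2B moved from rank 60 to rank 16 among the enzymes.

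The 3 tested class IIa deacetylases, which shuttle between nucleus and cytoplasm, were all called and did not share a direction. HDAC5 counts were 707, 709 and 687 at D0 and 2502, 2365 and 2935 at D6, a 3.71-fold rise of 1.89 (SE 0.0912, edgeR adjusted p = 1.46e-09). HDAC7 went the other way, from 5845, 5477 and 5623 to 2594, 2807 and 1959.8, or -1.20 (SE 0.13, edgeR adjusted p = 2.7e-06), and HDAC4 from 1771, 1862 and 1816 to 1074, 1070.5 and 915, or -0.83 (SE 0.0671, edgeR adjusted p = 1.62e-07). For each of the 3 the D0 and D6 libraries did not overlap. HDAC5 shares 1826 of its 7618 exon bases with the neighbouring G6PC3, and whether the counting used strand is not settled in the sources, so part of its reads could belong to that gene. In all, 45 of the 81 enzymes share exon bases with another annotated gene.

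Of the other deacetylases, HDAC11, the class IV enzyme, rose from 197, 205 and 179.8 to 527, 456 and 574, by 1.42 (SE 0.201, edgeR adjusted p = 3.31e-05). HDAC6, the tubulin deacetylase of class IIb, rose from 2669, 2639 and 2546 to 3845, 3760.2 and 4116, by 0.58 (SE 0.0421, edgeR adjusted p = 6.24e-08). Among the class I enzymes 2 rose and 2 fell. HDAC1 was higher by 0.10 and HDAC2 lower, at -0.12 (edgeR adjusted p = 0.0218 and 0.0222), and both calls were lost when single WT libraries were left out: HDAC1 without D0 replicate 1 or D0 replicate 2 (adjusted p = 0.0899 and 0.0609), HDAC2 without D0 replicate 1, D6 replicate 2 or D6 replicate 3 (0.111, 0.0854 and 0.0929). Of the 6 sirtuins 3 rose and none fell. The mitochondrial SIRT3 went from 426, 386 and 397 to 653, 691 and 707, or 0.76 (SE 0.0924, edgeR adjusted p = 8.1e-06), the nuclear SIRT1 changed by 0.57 (SE 0.0629, edgeR adjusted p = 3.28e-06) and the mainly cytoplasmic SIRT2 by 0.20 (SE 0.0455, edgeR adjusted p = 0.00135).

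The BAZ1B KO libraries, none of them shared with the WT comparison, gave the same number of calls. Again 55 of 76 enzymes were called from D0 to D6, 32 higher and 23 lower, where 67.7% of all genes were called, 33.2% higher and 34.5% lower. After the length and GC correction 38 were higher and 22 lower, where 68.5% of all genes were called, 4773 higher and 4734 lower. All 55 enzymes called in BAZ1B WT cells had the same direction in BAZ1B KO cells and 48 of them were called there. All 22 with a log2 change of at least 0.5 either way in WT cells were called in KO cells. KDM7A counts were 166, 114 and 109 in the KO libraries at D0 and 864, 920.4 and 974 at D6, a log2 change of 2.82 (SE 0.128, edgeR adjusted p = 9.52e-10). KAT2B went from 778, 542 and 614 to 2948, 3246 and 3421, or 2.31 (SE 0.111, edgeR adjusted p = 1.52e-09), and SETD7 from 1347, 1309.9 and 1217 to 277, 303 and 191, or -2.33 (SE 0.131, edgeR adjusted p = 5.96e-09). For each of these genes all D6 libraries lay on 1 side of all D0 libraries.

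HDAC5 rose in BAZ1B KO cells by 2.10 on the log2 scale, HDAC11 by 1.92, KMT5C by 1.44, KDM6A by 1.05, SIRT3 by 1.03 and EZH1 by 1.01. HDAC7, HDAC4, KDM5B, KMT2D and SETD4 fell by 1.06, 0.98, 0.76, 0.72 and 0.57. By families, 2 of 8 lysine 4 methyltransferases rose and 4 fell, 2 of 6 lysine 9 methyltransferases rose and 3 fell, and 5 of 6 sirtuins rose and none fell. After the length and GC correction 4 lysine 4 enzymes rose and 4 fell, 2 lysine 9 enzymes rose and 2 fell, and the sirtuin counts stayed the same. SUV39H1 was among the lysine 9 enzymes that rose, at 0.13 (SE 0.0507, edgeR adjusted p = 0.0425), but its call was lost without KO D0 replicate 2, without KO D0 replicate 3, without KO D6 replicate 2 and without KO D6 replicate 3 (adjusted p from 0.0958 to 0.168), and with a replicate block (adjusted p = 0.0611). KAT2A was lower, at -0.31 (SE 0.0955, edgeR adjusted p = 0.0121), with overlapping days, and its call was lost without KO D6 replicate 3 (adjusted p = 0.0617). KDM6B, not called in WT cells, fell here from 1151, 1139.6 and 1141 to 909.6, 923 and 907, or -0.33 (SE 0.0457, edgeR adjusted p = 3.23e-05).

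**Figure D2:**
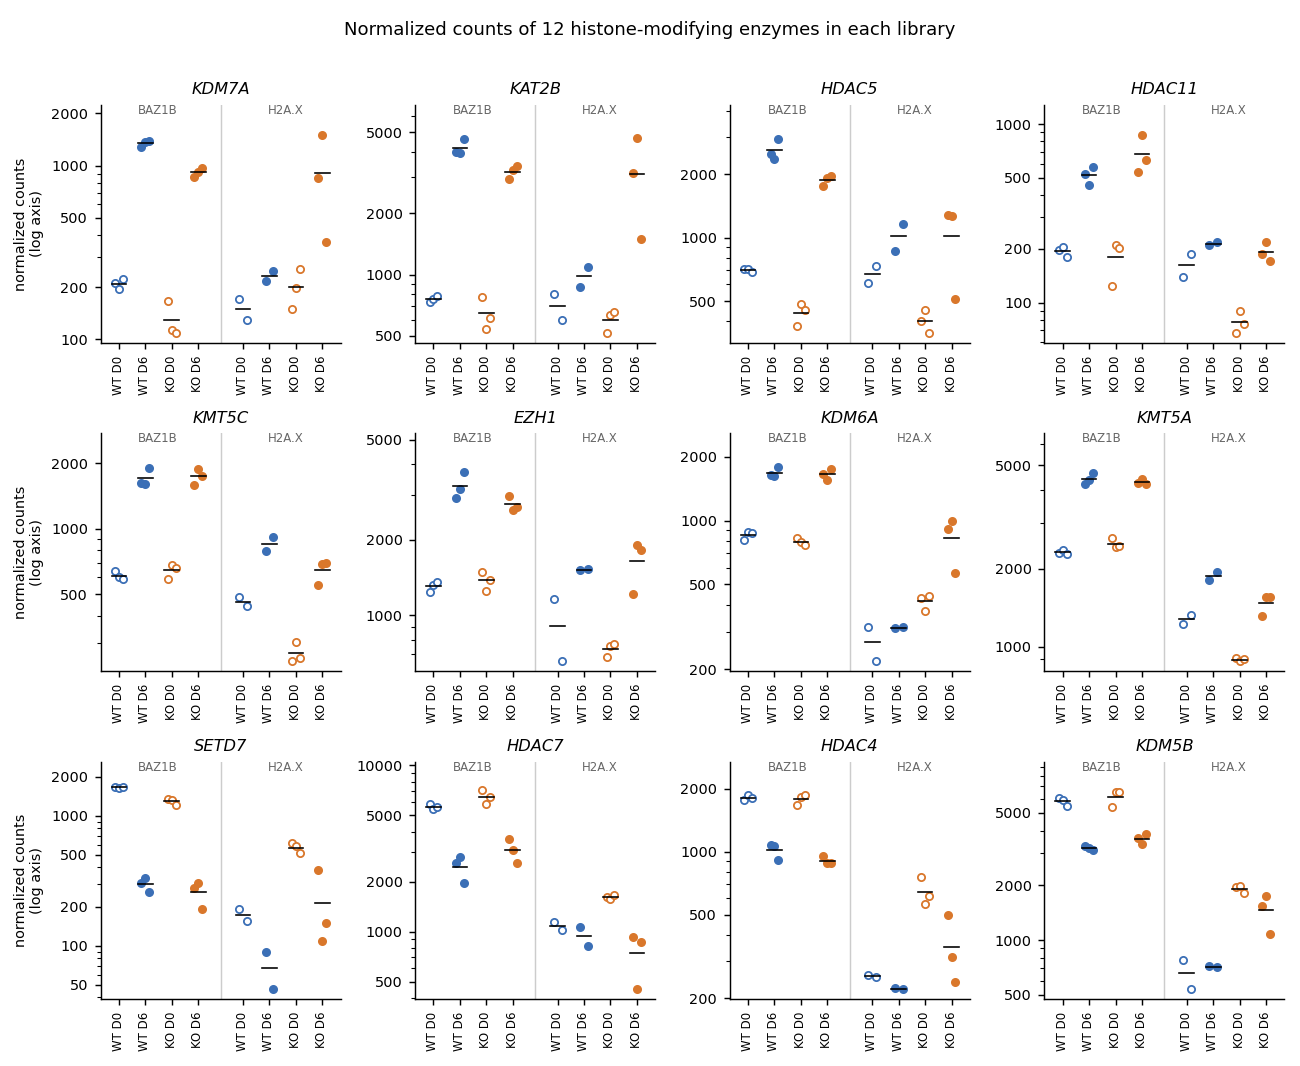
Normalized counts (vertical log axis) of 12 enzymes in each library, with BAZ1B libraries left and H2A.X libraries right in each panel, WT in blue, KO in orange, open circles for D0, filled circles for D6 and a bar at each group mean. In the BAZ1B libraries D0 and D6 do not overlap in any panel, and in the H2A.X KO libraries KO D6 replicate 3 (the rightmost circle) lies below the other D6 libraries for KDM7A, KAT2B and HDAC5.

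In the H2A.X experiment, maturation of the KO cells gave 22 called enzymes, 12 higher and 10 lower, where 30.9% of all genes were called, 14.8% higher and 16.1% lower. The 22 are 28.9% of the 76. All 22 had the direction they had in BAZ1B WT cells, where all were called. Of the 22 enzymes with a log2 change of at least 0.5 in BAZ1B WT cells, 22 had the same direction here and 15 were called. Without KO D6 replicate 3 the count rose to 36, 23 higher and 13 lower, against 36.9% of all genes, and it was 12 without KO D0 replicate 1, without KO D0 replicate 3 or without KO D6 replicate 2 and 14 without KO D0 replicate 2. In the fits with 12 or 14 enzymes 20.2% to 21.5% of all genes were called. After the correction for length and GC content the count was 34, 23 higher and 11 lower, against 36.8% of all genes.

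KAT2B counts in H2A.X KO cells were 517, 629 and 651 at D0 and 3173, 4682 and 1488 at D6, a log2 change of 2.38 (SE 0.348, edgeR adjusted p = 0.000986), or 2.73 without KO D6 replicate 3. KDM7A went from 149, 197 and 255 to 849, 1504 and 362, or 2.17 (SE 0.428, edgeR adjusted p = 0.00424) (2.57 without that library), and HDAC5 from 403, 456 and 353 to 1286, 1264 and 509.7, or 1.34 (SE 0.308, edgeR adjusted p = 0.00913) (1.68 without it). The days did not overlap, and KO D6 replicate 3 was the lowest D6 library for all 3 genes. KMT5C rose from 247, 304 and 254 to 553, 691 and 696, by 1.27 (SE 0.154, edgeR adjusted p = 0.000382), and HDAC11 from 67.6, 89.3 and 75.7 to 187, 219 and 171, by 1.31 (SE 0.208, edgeR adjusted p = 0.00149). EZH1, KDM6A and KMT5A rose by 1.16, 0.99 and 0.72.

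SETD7 fell in H2A.X KO cells from 614, 581 and 512 to 381, 109 and 151, or -1.41 (SE 0.405, edgeR adjusted p = 0.0245), a call that was lost when any KO library other than D6 replicate 1 was left out (-2.13 to -1.09 over all 6). HDAC7 and HDAC4 fell by 1.12 and 0.88, EHMT2 by 0.77, PRMT1 by 0.74, KDM2B by 0.60, PRMT5 by 0.53, KDM1A by 0.45 and SUV39H2 by 0.42. The calls of HDAC4, PRMT1, KDM2B, PRMT5, KDM1A and SUV39H2 were each lost without KO D6 replicate 2 and without at least 1 of the KO D0 libraries. All 3 methyltransferases of H4 lysine 20 rose, as in BAZ1B WT cells, and EZH1 but not EZH2 was called among the lysine 27 enzymes. In BAZ1B KO cells 2 of the 3 lysine 20 enzymes were called, both higher, and the lowest log2 change of the 3 was 0.03.

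The H2A.X WT cells gave 1 called enzyme from D0 to D6, where 2% of all genes were called, 0.839% higher and 1.16% lower. KMT5C had 486 and 440.4 counts at D0 and 788 and 914 at D6, without overlap, a log2 change of 0.88 (SE 0.187, edgeR adjusted p = 0.0461) that was no longer called when any of the 4 WT libraries was left out. DESeq2 called 6 enzymes, where it called 8.06% of all genes. At an unadjusted p below 0.05 there were 12 enzymes, and the share of all genes at that level was not computed. Of the 55 enzymes called in BAZ1B WT cells 41 had the same direction in H2A.X WT cells. KAT2B was at 807 and 598 and then 873 and 1093, and KDM7A at 172 and 129 and then 216 and 249, neither called. The difference between the maturation changes of H2A.X KO and WT cells was called for 0 of 76 enzymes (edgeR) and for 1.34% of all genes, 0.302% higher and 1.04% lower in KO cells. DESeq2 called 1 enzyme, where it called 5.14% of all genes. At an unadjusted p below 0.05 there were 5 enzymes, again without a computed share of all genes. Without KO D6 replicate 3 it was called for 7, against 6.45% of all genes: KAT2B by 2.27 (SE 0.312, edgeR adjusted p = 0.00748), KDM7A by 1.97 (adjusted p = 0.0336), HDAC5, KDM2A, KDM5A and KDM6B, all with a higher change in KO cells, and KAT2A at -0.98 (adjusted p = 0.033). KDM2A and KDM5A were named after their values were seen.

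Between BAZ1B KO and WT cells no difference was called for most enzymes. At D0 3 of 76 (3.95%) were called between BAZ1B KO and WT cells, 1 higher and 2 lower, where 3.88% of all genes were called, 1.25% higher and 2.64% lower. At D6 8 of 76 (10.5%) were called, 3 higher and 5 lower, where 12.8% of all genes were, 6.87% higher and 5.97% lower. The shares were close to the background on both days. HDAC5 was lower in KO cells at both days. Its counts at D0 were 707, 709 and 687 in WT and 379, 486 and 452 in KO libraries, a log2 difference of -0.68 (SE 0.0965, edgeR adjusted p = 0.00146). The D6 counts, 2502, 2365 and 2935 for WT and 1765, 1917 and 1953 for KO, gave a difference of -0.47 (SE 0.0868, edgeR adjusted p = 0.0034). WT and KO did not overlap on either day, and the call held with each library left out in turn.

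KDM7A was also lower in BAZ1B KO cells at both days. At D0 it had 211, 194 and 222 counts in WT and 166, 114 and 109 in KO libraries, a difference of -0.68 (SE 0.134, edgeR adjusted p = 0.0115). Without WT D0 replicate 3 or without KO D0 replicate 3 it was -0.64 and -0.58 and not called (adjusted p = 0.0582 and 0.0633), nor was it called with the D0 libraries alone (adjusted p = 0.111). At D6 the counts were 1285, 1362 and 1391 in WT and 864, 920.4 and 974 in KO libraries, a difference of -0.55 (SE 0.11, edgeR adjusted p = 0.00561). HDAC6 was higher in KO cells at D0, at 2868, 2928 and 3036 against 2669, 2639 and 2546, by 0.17 (SE 0.0422, edgeR adjusted p = 0.0445), but was not called without WT D0 replicate 1, 2 or 3 or without KO D0 replicate 2 or 3 (adjusted p from 0.0871 to 0.209), nor with a replicate block (0.0574).

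At D6 KAT2B was lower in BAZ1B KO cells, at 2948, 3246 and 3421 against 3979.9, 3958 and 4635 in WT libraries, a difference of -0.39 (SE 0.101, edgeR adjusted p = 0.0232). The groups did not overlap, but the call was lost without WT D6 replicate 3 (-0.32, adjusted p = 0.118) and without KO D6 replicate 1 (-0.33, adjusted p = 0.077). KDM6B was at 909.6, 923 and 907 in KO and 1103, 1077 and 1149.7 in WT libraries, a difference of -0.28 (SE 0.0458, edgeR adjusted p = 0.00144). KMT2C, a lysine 4 methyltransferase of enhancers, differed by -0.21 (SE 0.0595, edgeR adjusted p = 0.0383) and was not called without WT D6 replicate 1, 2 or 3 or without KO D6 replicate 1 or 2. The 3 enzymes that were higher in KO cells were KDM2B at 0.27 (SE 0.0551, edgeR adjusted p = 0.00565), EHMT2 at 0.20 (SE 0.0476, edgeR adjusted p = 0.0154), not called without WT D6 replicate 2 (adjusted p = 0.0509), and the lysine 4 methyltransferase SETD1A at 0.17 (SE 0.0344, edgeR adjusted p = 0.0063). Of the 18 late erythroid genes 6 were lower and 1 higher in BAZ1B KO cells at D6, with a median log2 difference of -0.21. Whether this bears on the 5 lower enzymes was not tested.

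**Figure D3:**
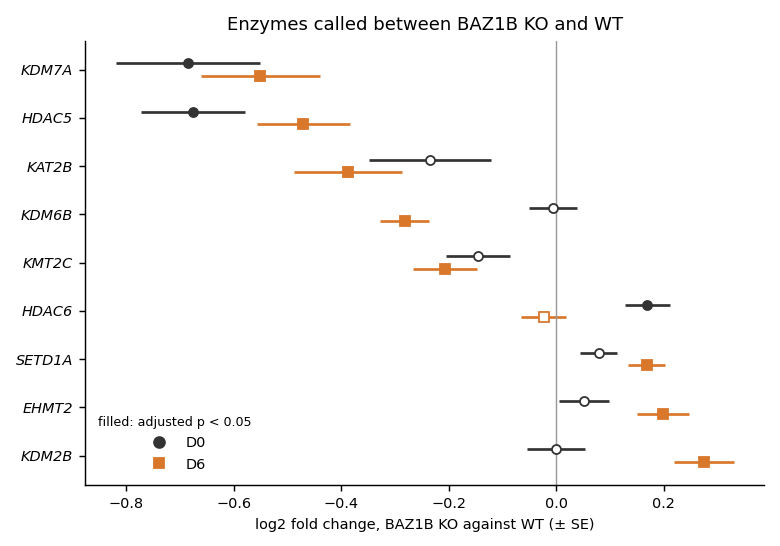
Log2 fold change of BAZ1B KO against WT cells with its standard error (horizontal axis) for the 9 enzymes called on at least 1 day, at D0 (circles) and D6 (squares), filled where the edgeR adjusted p was below 0.05. KDM7A and HDAC5 are filled on both days, at -0.68 and -0.68 at D0 and -0.55 and -0.47 at D6.

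The KO difference itself changed between the days for 1 enzyme of 76, where 2.47% of all genes were called, 1.58% with a difference that was higher at D6 and 0.893% with one that was lower. KDM6B had nearly equal counts at D0, with means of 1149 ± 25.9 in WT and 1144 ± 6.05 in KO cells (SD, n = 3), and 1109.9 ± 36.7 and 913 ± 8.62 at D6. Its difference of differences was -0.28 (SE 0.0642, edgeR adjusted p = 0.0436), and the call was lost when any 1 library other than KO D0 replicate 1 was left out. For HDAC5 and KDM7A the change of the KO difference between the days was not called (0.21 and 0.13, edgeR adjusted p = 0.479 and 0.761). At an unadjusted p below 0.05 there were 9 enzymes, and the share of all genes at that level was not computed.

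Between H2A.X KO and WT cells, far more enzymes were called. At D0 31 of 76 (40.8%) passed, 23 higher and 8 lower in KO cells, where 35.1% of all genes were called, 18.4% higher and 16.7% lower. At D6 37 of 76 (48.7%) passed, 31 higher and 6 lower, where 43.1% of all genes were called, 22.2% higher and 20.9% lower. The median log2 difference of the enzymes was 0.17 at D0 and 0.26 at D6, that of all genes 0.01 and -0.01. Each count rests on single WT libraries: without WT D0 replicate 2 the D0 count was 0, with 77 genes called in all, and without WT D6 replicate 2 the D6 count was 0, with 152. In these fits 1 WT sample is left on that day and is taken to vary like the other groups. Without KO D6 replicate 3 the D6 count was 48, 36 higher and 12 lower, against 50.4% of all genes.

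Most enzymes that were higher in H2A.X KO cells had long transcripts. Of the 33 enzymes with canonical transcripts of 5 kb or longer 20 were higher and 0 lower at D0, and 25 higher and 0 lower at D6. Of the 43 shorter ones 3 were higher and 8 lower at D0, and 6 higher and 6 lower at D6. Among all genes of 5 kb or longer 47.4% were higher and 4.08% lower at D0, and 54.8% and 3.81% at D6. Among shorter genes 10.6% were higher and 21.6% lower at D0, and 13.8% and 26.4% at D6. Across the 76 enzymes Spearman's rho between length and log2 difference was 0.758 at D0 and 0.783 at D6, and across the 12017 genes with a known length 0.544 and 0.601. The points share their libraries, so these are descriptions. In the BAZ1B experiment the same values for the enzymes were -0.148 at D0 and -0.208 at D6.

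**Figure D4:**
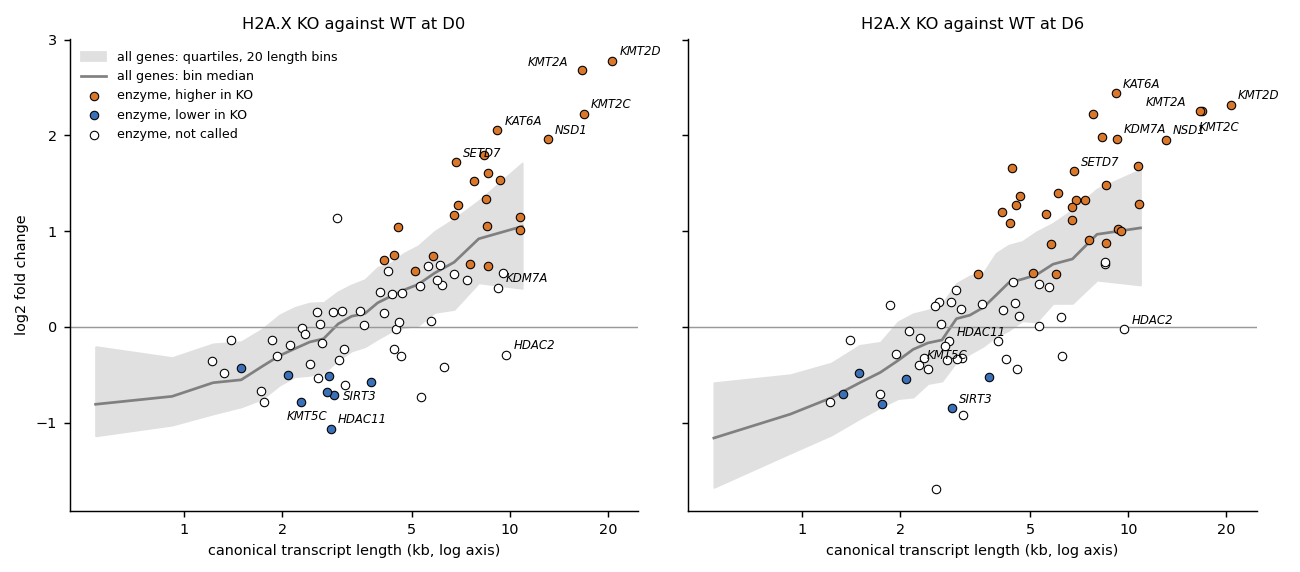
Log2 fold change of H2A.X KO against WT cells (vertical axis) by canonical transcript length (horizontal log axis, kb) at D0 (left) and D6 (right) for the 76 enzymes (circles, coloured where called) and for all genes (line, median, and band, quartiles, in 20 length bins). Differences rise with length for the enzymes and for all genes. Medians were 0.74 at D0 and 1.18 at D6 for enzymes of 5 kb or longer, and 0.69 and 0.79 for all such genes. Shorter enzymes had medians of -0.17 and -0.15, and all shorter genes -0.15 and -0.19. KMT2D, KMT2A and KMT2C lie at the top right.

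Of the lysine 4 methyltransferases 7 of 8 were higher at each day and none lower, and after a correction for the length and GC content of transcripts 3 were called higher at D0 and 4 at D6. KMT2D, with a transcript of 20635 bases, had 438 and 205 counts in WT and 2671, 2036 and 1926 in KO libraries at D0, a log2 difference of 2.78 (SE 0.545, edgeR adjusted p = 0.0079). At D6 it had 426 and 361 and 2959, 2228 and 718, a difference of 2.32 (SE 0.534, edgeR adjusted p = 0.00796). The groups did not overlap, and KO D6 replicate 3, the library without the mark, was the lowest of the KO libraries. KMT2A (16600 bases) differed by 2.69 (SE 0.47, edgeR adjusted p = 0.00608) at D0 and 2.25 at D6, and KMT2C (16860 bases) by 2.23 and 2.25. KMT2A shares 5755 of its 31469 exon bases with another annotated gene. KMT2E was higher by 1.53 and 2.22, SETD7 by 1.72 and 1.63 and SETD1A, called at D6 alone, by 0.56. Without KO D6 replicate 3 the D6 differences were 2.75 for KMT2D and 2.65 for KMT2A.

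All 4 lysine 36 methyltransferases were higher at both days, with medians of 1.31 and 1.39, and after the correction for length and GC content 2 were called at D0 and 1 at D6, with medians of 0.39 and 0.42. NSD1 had 784 and 470.3 counts in WT and 2659.5, 2274 and 2395 in KO libraries at D0, a difference of 1.96 (SE 0.372, edgeR adjusted p = 0.00757), and SETD2 differed by 1.61 (SE 0.334, edgeR adjusted p = 0.00891). The acetyltransferases KAT6A and KAT6B, of the MYST group, were higher by 2.05 and 1.79 at D0 and by 2.44 and 1.98 at D6. KAT6A had 500.3 and 415 counts in WT and 3227, 3098 and 1130.5 in KO libraries at D6. In the same family the shorter KAT5 (TIP60) and KAT8 were lower on both days, by 0.50 and 0.43 at D0 and 0.54 and 0.48 at D6, and KAT5 shares 1439 of its 3732 exon bases with RNASEH2C. Of the 17 demethylases 5 were higher at D0 and 12 at D6, none lower. KDM5B differed by 1.54 and 1.03. KDM7A, KAT2B and KDM6A, not called at D0, were higher at D6 by 1.96, 1.66 and 1.40. Without KO D6 replicate 3 these were 2.37, 2.03 and 1.64. The calls of KDM7A and KAT2B were lost after the length and GC correction (0.87, edgeR adjusted p = 0.15, and 1.14, adjusted p = 0.053), when either WT D6 library was left out, and among the D6 libraries without the mark (0.65 and 0.61), and that of KDM6A without WT D6 replicate 2 and among the libraries without the mark (0.87).

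The enzymes that were lower in H2A.X KO cells had short transcripts. HDAC11 (2819 bases) had 138 and 187 counts in WT and 67.6, 89.3 and 75.7 in KO libraries at D0, a difference of -1.07 (SE 0.228, edgeR adjusted p = 0.00956). KMT5C (2286 bases) had 486 and 440.4 and 247, 304 and 254, or -0.79 (SE 0.169, edgeR adjusted p = 0.00961). WT and KO did not overlap for either gene at D0, and neither was called at D6. SIRT3 was lower by 0.71 at D0 and 0.85 at D6, SUV39H1 by 0.69 and KMT5A by 0.51 at D0, PRMT7 by 0.57 and 0.52, and PRMT1 by 0.70 and HDAC8 by 0.81 at D6. SUV39H1 (685 of 3233 exon bases), PRMT7, HDAC8, HDAC11, PRMT1 and SIRT3 share exon bases with other annotated genes. SIRT1, with a longer transcript than SIRT3, was higher by 0.70 and 1.20, but its D0 call was lost when any single D0 library was left out and with upper-quartile factors. EZH1, EZH2, KDM1A, HDAC1, HDAC2, HDAC5, HDAC6, HDAC7, EHMT2, SUV39H2, PRMT5, SIRT2 and KDM2B were called on neither day. KAT2A was not called either, but without KO D6 replicate 3 it was lower at D6, at -1.60 (edgeR adjusted p = 0.00027), and SIRT7 was at -1.09.

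After the correction for length and GC content, 18 enzymes were called at D0, 12 higher and 6 lower, and 20 at D6, 15 higher and 5 lower. The same call and direction as without the correction were kept by 17 and 16 of these. Of all genes the corrected fit called 20.4% at D0, 1304 higher and 1400 lower, and 21.4% at D6, 1395 higher and 1442 lower. KMT2D remained higher, by 1.74 at D0 and 1.48 at D6, KMT2A by 1.48 and 1.16, KAT6A by 1.20 and 1.53, KAT6B by 1.01 and 1.15 and NSD1 by 0.89 and 0.98. The correction capped length at an upper percentile, so transcripts beyond the cap were corrected as if at the cap. Whether length has a part in the remaining differences of the longest transcripts was not tested. KMT2C was no longer called at D0 (1.02, edgeR adjusted p = 0.066). KMT5C was no longer called at D0, at -0.26. SIRT1 lost its D0 call, at 0.40. At D6 the calls of KDM5B (0.12), SETD2 (0.58), KDM7A, KAT2B, KDM6B (0.93), KAT7 (0.13), KAT5 (-0.11) and HDAC8 (-0.41) were lost. KAT8 turned to 0.10 at D0 and 0.20 at D6 and PRMT1 to 0.05 at D6, none of them called.

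Summed over the 33 long enzymes, normalized counts at D0 were 36309 and 30773 in the WT and 58612, 55629 and 55787 in the KO libraries of the H2A.X experiment. The D6 sums were 33551 and 30982 for WT, 70492 and 71729 for KO replicates 1 and 2 and 44393 for KO replicate 3. Every KO library lay above every WT library, and KO D6 replicate 3 lay between the WT and the other KO libraries. The sums over the 43 short enzymes were lower in every KO library at D0, at 42744, 42325 and 42899 against 46111 and 45751 in WT, and overlapped between the genotypes at D6, from 41303 to 45582 in KO and from 42555 to 43922 in WT libraries. Among the D6 libraries without the mark, 1 KO and 2 WT, 4 enzymes were called, all higher in KO, where 5.22% of all genes were called. The lone KO library is taken there to vary like the other groups. In that comparison 31 of the 33 long enzymes had a positive difference with a median of 0.65, the median of the 43 short ones was -0.02 and rho with length was 0.701. KDM6B, called at D6 with overlapping groups at 1.25 (SE 0.46, edgeR adjusted p = 0.0488), had a difference of -0.16 there. The part of the mark in the D0 differences cannot be told apart from that of the genotype.

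**Figure D5:**
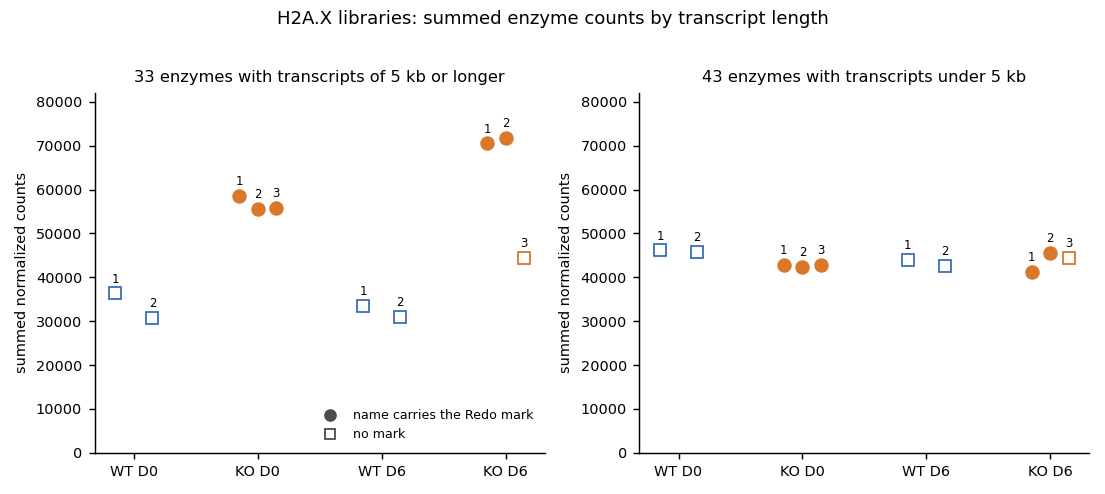
Summed normalized counts (vertical axis) of the 33 enzymes with transcripts of 5 kb or longer (left) and the 43 shorter ones (right) in each H2A.X library, numbered by replicate, with filled circles for libraries whose name carries the Redo mark and open squares for the others. On the left the KO libraries lie at 44393 or more and the WT libraries at 36309 or less, and KO D6 replicate 3 is the lowest KO library. On the right all lie between 41303 and 46111.

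Markers of the cells' stage moved with the H2A.X genotype as well. Of the 18 late erythroid genes 1 was higher and 9 lower in H2A.X KO cells at D0, with a median log2 difference of -0.88, and 9 were higher and 1 lower at D6, with a median of 0.91. Of the 8 erythroid markers 7 were lower and none higher at D0, with a median of -1.15, and 1 was higher and 1 lower at D6, with a median of -0.10. The summed late erythroid genes overlapped between the genotypes at D6, with medians of 702166 normalized counts in KO and 874574 in WT libraries. What part the stage of the cells had in these differences was not tested.

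Partner genes that act with the enzymes but lie outside the name rule were counted from lists. In BAZ1B WT cells 4 of 9 partners in PRC2 rose with maturation and 2 fell, with a median log2 change of 0.09, and the core subunit SUZ12 rose by 0.50 (SE 0.0367). Among 10 partners in COMPASS, the complexes of the lysine 4 methyltransferases, 3 rose and 3 fell, with a median of -0.06. Among 18 partners in deacetylase complexes 5 rose and 6 fell, with a median of -0.07, and GFI1B, the erythroid repressor that recruits KDM1A, rose by 1.02 (SE 0.0504). Among 16 enzymes with other names, such as EP300 and DOT1L, 3 rose and 8 fell, with a median of -0.09. Of all genes 33.5% rose and 35.4% fell in that comparison.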

How the data were processed

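RNA-Seq was measured in 22 libraries, all of which were used. The authors deposited raw counts per gene for each experiment in a table of the whole series. The submitters' processing notes name hg38, STAR 2.7.0f, Subread 1.6.4 with featureCounts and DESeq2 1.22.1. A stranded kit is named in the study's methods and an unstranded one in the labels, and the strand setting of the counting is not given in the sources used here.

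Counts were tested with edgeR 4.0.16 (quasi-likelihood, TMM factors) in R 4.3.3, with the 4 groups of an experiment in 1 model, after a filter on low counts (filterByExpr, settings 10 per library and 15 in total). P-values were adjusted over all genes by Benjamini-Hochberg, with 0.05 as the threshold. For H2A.X and BAZ1B, respectively, 6 and 8 residual degrees of freedom remained and the common biological coefficient of variation was 0.239 and 0.0865. Canonical transcript length and GC content came from GENCODE 44 for 90.8% and 89.4% of tested genes. Alternatives were DESeq2 1.42.0, other size factors, no filter, a replicate block, a length and GC correction, the compared libraries alone, each library left out and a stricter rule (adjusted p below 0.001 and a log2 fold change above 1.5 either way).

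The enzymes, the marker and partner lists and the tests were chosen with earlier results of these data known. Enzymes were named from a list of well-studied ones and as the 6 called enzymes that changed most each way, given a mean of 50 or more normalized counts. In data simulated for KO against WT at D0, 66 of 66 genes with a log2 change of 2 and 24 of 67 with a change of 1 were called for the H2A.X experiment among 12810 genes, and 66 of 66 and 66 of 67 for the BAZ1B experiment among 13513 genes. For libraries with the same replicate number, taken from the labels, the deviations from the group means were correlated. Between D0 and D6 the correlations were 0.562, 0.305 and 0.289 in H2A.X KO, 0.411, 0.505 and 0.107 in BAZ1B KO and 0.237, -0.03 and 0.172 in BAZ1B WT cells. In H2A.X WT cells, with 2 libraries a day, they are equal by construction (0.595). Between KO and WT they ran from -0.151 to 0.243. These ranges overlap and unlike numbers were not compared, so whether the numbers pair libraries is not settled. Intervals were not computed from reads, and library depth bounds a count of 0 only for counting error.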

Additional observations from a re-analysis of the deposited data

Results flagged for a closer look

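KDM6B was singled out because its difference between BAZ1B KO and WT cells changed between the days, by -0.28 (SE 0.0642, edgeR adjusted p = 0.0436) at D6 minus D0. All 3 KO libraries lay below all 3 WT libraries at D6, at 909.6, 923 and 907 against 1103, 1077 and 1149.7 normalized counts, and the groups overlapped at D0, at 1151, 1139.6 and 1141 against 1178, 1129 and 1140.5. The adjusted p was 0.0178 by DESeq2, 0.0612 with a replicate block and 0.233 without the filter on low counts, and it ran from 0.0396 to 0.138 with single libraries left out. It was the only enzyme of 76 for which this difference passed the test.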

How the results depend on the processing

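Counts of called enzymes in BAZ1B maturation stayed within 1.5 times the value in the report except under the stricter rule (adjusted p below 0.001 and a log2 fold change above 1.5), which left 4 in WT and 5 in KO cells, and with single libraries left out they ran from 49 to 53 and from 51 to 55. Of all genes 63.4% to 64.3% and 62.7% to 67.1% were called with single libraries left out. Of the 55 in each, 46 in WT and 53 in KO cells kept their call and direction after the length and GC correction, with 37 higher and 17 lower, and 38 and 22, in all. The stricter rule left 0 enzymes in both KO comparisons of each experiment, in the change of the BAZ1B KO difference and in H2A.X WT maturation, and 1 in H2A.X KO maturation. Without the filter on low counts, BAZ1B KO against WT gave 5 enzymes at D0 and 13 at D6, the change of the KO difference 2 in the BAZ1B and 3 in the H2A.X experiment, and H2A.X WT maturation 2. Of all genes 4.42%, 9.02%, 3.63%, 3.95% and 4.98% were called there in that order. The length and GC correction gave 18 enzymes at D0 and 20 at D6 for H2A.X KO against WT, 34 in H2A.X KO maturation, 2 in H2A.X WT maturation and 1 for the change of the H2A.X KO difference. Of all genes it gave 20.4%, 21.4%, 36.8%, 2.67% and 1.94% in that order. It turned KAT8 to 0.10 at D0 and 0.20 at D6 and PRMT1 to 0.0501 at D6 on the log2 scale. Split by length after the data were seen, the 31 calls at D0 were 20 among enzymes of 5 kb or longer and 11 among shorter ones, and 12 of the 37 at D6 were among the shorter. The D6 libraries without the Redo mark, also compared after the data were seen, gave 4, and KDM6B turned to -0.16. H2A.X WT maturation gave 0 with upper-quartile factors or the compared libraries alone and 6 with DESeq2, which gave 1 for the change of the H2A.X KO difference and 2 for BAZ1B. Of all genes DESeq2 called 8.06%, 5.14% and 5.04% in these comparisons.

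With single libraries left out, BAZ1B KO against WT gave 1 to 5 enzymes at D0 (1 without WT D0 replicate 3 or KO D0 replicate 3, 5 without KO D0 replicate 1) and 6 to 11 at D6, and the change of its KO difference 0 to 1. H2A.X KO against WT gave 0 to 32 at D0 and 0 to 48 at D6, H2A.X KO maturation 12 to 36, H2A.X WT maturation 0, and the change of the H2A.X KO difference 0 to 7, the most without KO D6 replicate 3. With single libraries left out, the share of all genes called moved as well. It ran from 1.83% to 9.35% for BAZ1B KO against WT at D0 and from 7.88% to 11.6% at D6. For the change of the BAZ1B KO difference it ran from 0.844% to 5.41%, and for H2A.X KO maturation from 20.2% to 36.9%. The cause of these shifts was not tested. With a replicate block the counts were 40 and 45 for H2A.X KO against WT at D0 and D6, 23 and 1 for H2A.X KO and WT maturation, 2 and 8 for BAZ1B KO against WT, and 59 and 53 for BAZ1B WT and KO maturation. Of all genes the block gave 41.5%, 48.8%, 38.5%, 8.51%, 4.22%, 13%, 72.2% and 70.5% in that order. Of the calls of enzymes named from the list or by size, the block removed only those of HDAC6, KDM6B and SUV39H1. Calls that the block added are not listed by enzyme here.

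Over all genes, H2A.X WT maturation gave 265 calls, 1271 without the filter, 1127 with the block, 503 with the compared libraries and 1067 by DESeq2, and the change of the H2A.X KO difference 177, 1007 without the filter, 552 with the block and 680 by DESeq2. H2A.X KO against WT gave 4651 and 5701 calls at D0 and D6, and 2704 and 2837 after the length and GC correction, with 3731 at D6 from the compared libraries. BAZ1B KO against WT at D0 gave 539 and 1201 without the filter, and the change of its KO difference 343 (219 higher), 987 without the filter, 718 with the block, 700 by DESeq2 and 171 higher of 334 with upper-quartile factors. Upper-quartile factors shifted the median of all genes by -0.11 for H2A.X KO against WT at D6. In the data simulated for H2A.X KO against WT at D0, 2 of 67 genes with a log2 change of 0.5 and 24 of 67 with a change of 1 were called. The simulation gave all genes 1 common spread and changed few of them. These shares therefore do not carry over to the real comparison, where 35.1% of all genes were called.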
